A study of Mus musculus with 53 samples.

Results

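Id1, Id2 and Id3 encode inhibitors of DNA binding, small nuclear proteins, and Bmp4 encodes a secreted bone morphogenetic protein (BMP). The 4 genes were taken by name from mouse R1 embryonic stem cells, out of 11647 genes listed in a table of 5 bulk RNA libraries and 23235 in a table of single cells. All cells were grown in serum with LIF and without feeders. In 3 bulk libraries the cells differed in the T-box factor Tbx3: N/N cells (labelled null, Tbx3 -/-), +/N cells (heterozygous, Tbx3 +/-) and +/+ cells (wild type). The other 2 came from wild-type cells that carried a hairpin, aimed at Tbx3 in shTbx3 cells and at luciferase in shLuc cells. The remaining data were 45 single cells and 1 pool of cells, sorted as positive for the surface antigen SSEA1 and negative for the dye DAPI, and 3078 genomic sites of biotin-tagged Tbx3, pulled down with streptavidin from N/N cells that carried the tagged protein and the biotin ligase BirA. With 1 library for each population, the spread within a population is unknown, differences have no replicate check and no p-value is given. Which part of Tbx3 the N allele lacks, whether a population is 1 clone, and the hairpin's sequence and timing are not stated in the labels.

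Id proteins hold a helix-loop-helix but lack the basic stretch that touches DNA. They pair with bHLH transcription factors, above all the E proteins, and keep them off DNA, which delays differentiation. BMP ligands bind type I and type II receptor kinases, which phosphorylate Smad1, Smad5 and Smad9; these join Smad4 and switch on target genes, of which the Id genes are the best known. In mouse embryonic stem cells, BMP4 in serum acts through Id proteins together with LIF to hold back neural differentiation.

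On the mm9 build, Id1 lies at chr2:152561987-152563146 on the plus strand, Id2 at chr12:25778666-25780957 on the minus strand, Id3 at chr4:135699412-135701670 on the plus strand and Bmp4 at chr14:47003195-47010344 on the minus strand. No other annotated gene overlaps Id1, Id2 or Id3. Bmp4 shares 89 bp with Gm15217 and 1764 bp with Gm15222, both on the opposite strand, and strand use in the counting is not stated, so reads from them and from Bmp4 cannot be told apart.

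The Tbx3 sites nearest to Id3, Id2 and Id1 are shown because they are the sequences in which Tbx3 was found closest to these genes. Each is the 300 bases around a site's centre, on the plus strand of mm9. Capitals mark any match, on either strand, to 4 strings: GGTGTGA (the core of a T-box sequence), AGGTGT (a shorter T-box sequence, which overlaps the first where an A stands before it), GGCGCC (a GC-rich Smad sequence, the same on both strands) and ATGCAAAT (the octamer). The Id3 window spans chr4:135702703-135703002, the Id2 window chr12:25783637-25783936 and the Id1 window chr2:152595520-152595819. The Id1 site lies 33465 bp from the start of Id1, within the gene Bcl2l1 and closer to the start of Cox4i2. The Bmp4 site, 21855 bp from the start of Bmp4, is not printed.
Id3 site: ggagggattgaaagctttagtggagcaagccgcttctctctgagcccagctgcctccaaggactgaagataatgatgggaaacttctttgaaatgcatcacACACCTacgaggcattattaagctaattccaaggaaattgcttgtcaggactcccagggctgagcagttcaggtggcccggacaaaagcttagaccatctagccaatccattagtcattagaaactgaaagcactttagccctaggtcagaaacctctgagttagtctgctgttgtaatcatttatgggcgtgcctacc
Id2 site: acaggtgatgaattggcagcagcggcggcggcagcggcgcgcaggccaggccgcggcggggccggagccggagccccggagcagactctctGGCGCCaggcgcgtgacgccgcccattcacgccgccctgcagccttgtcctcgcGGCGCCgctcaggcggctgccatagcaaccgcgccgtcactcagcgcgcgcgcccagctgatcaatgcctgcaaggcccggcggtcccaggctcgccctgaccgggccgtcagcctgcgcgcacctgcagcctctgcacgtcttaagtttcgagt
Id1 site: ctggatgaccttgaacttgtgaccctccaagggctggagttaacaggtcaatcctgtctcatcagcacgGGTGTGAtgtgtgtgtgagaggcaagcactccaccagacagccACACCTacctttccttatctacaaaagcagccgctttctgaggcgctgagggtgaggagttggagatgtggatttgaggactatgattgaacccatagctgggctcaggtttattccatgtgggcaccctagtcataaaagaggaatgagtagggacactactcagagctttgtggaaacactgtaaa

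In the Id3 window AGGTGT occurred once, on the minus strand, at base 102 counted from 1 at the 5′ end. The Id1 window held GGTGTGA at base 70 and AGGTGT on the minus strand at base 113. The Id2 window held GGCGCC at bases 92 and 146 and neither T-box string. None of the 4 strings occurred in the window of the Bmp4 site (chr14:47032206-47032505) or in that of a second, distant Id3 site (chr4:135627272-135627571). Over the windows of all 3078 sites, AGGTGT occurred in 31.2%, GGTGTGA in 10.0%, GGCGCC in 7.34% and ATGCAAAT in 6.40%; over 32544 promoters of the same length the shares were 13.8%, 3.95%, 11.9% and 1.75%. A GC content of 73% set the Id2 window apart from those of Id1, Id3 and Bmp4, which had 49.7%, 47.0% and 47.7%.

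Promoters of Id3 and Id2 are shown because these genes had a Tbx3 site within a few kilobases. They run from 250 bases before to 50 after the start, in the gene's direction, from RefSeq on GRCm38.p6, at chr4:136143572-136143871 for Id3 (plus strand) and chr12:25096043-25096342 for Id2 (minus strand). On mm9 the Id3 promoter matches chr4:135699487-135699786, inside the annotated gene. Its RefSeq start thus lies later than the GENCODE start, 135699412, from which site distances of Id3 run. An entry was found for 3 of the 4 genes, and Id1 has none here.
Id3 promoter: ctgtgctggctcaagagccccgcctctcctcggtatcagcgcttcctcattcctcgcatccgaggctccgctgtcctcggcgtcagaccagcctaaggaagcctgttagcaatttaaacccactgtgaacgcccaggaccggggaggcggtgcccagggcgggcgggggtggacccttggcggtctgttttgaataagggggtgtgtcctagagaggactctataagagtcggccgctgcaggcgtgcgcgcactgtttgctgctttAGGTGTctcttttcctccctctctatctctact
Id2 promoter: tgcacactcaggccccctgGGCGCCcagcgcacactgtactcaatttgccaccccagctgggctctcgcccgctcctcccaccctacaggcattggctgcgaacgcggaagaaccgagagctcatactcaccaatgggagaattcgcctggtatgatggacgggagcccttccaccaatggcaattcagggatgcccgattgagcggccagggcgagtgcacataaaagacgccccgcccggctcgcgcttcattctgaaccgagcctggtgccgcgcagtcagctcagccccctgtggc
The Id3 promoter held AGGTGT at base 268 and the Id2 promoter GGCGCC at base 20. The Bmp4 promoter held none of the 4 strings. A match describes letters, not binding.

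The 4 genes were all highest in the shTbx3 library, and between the 3 allele libraries only Id1 differed by more than 0.5 on the log2 scale. Levels are given as FPKM, a count of fragments per length of transcript that is scaled to the total of the library, and differences are log2 of the ratio after 1 FPKM is added to both levels, which understates changes of low genes. A gene was called where the difference reached 2-fold, among genes that reached 1 FPKM in either of the libraries compared.

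Tbx3 itself stood at 15.1 FPKM in N/N, 22.5 FPKM in +/N and 44.4 FPKM in +/+ cells, and at 5.09 FPKM in shTbx3 against 13.8 FPKM in shLuc cells. Its order followed the labels in both sets, although transcript remained in every library. Median levels over all genes were alike across the libraries, at 9.13 to 10.6 FPKM. Every listed gene was above 0 FPKM in +/+ cells, while 26 were at 0 in N/N, 23 in +/N, 165 in shTbx3 and 179 in shLuc cells. A gene at 0 in +/+ cells thus has no row, so a missing row does not show a gene to be silent in the other libraries. Small RNA genes made up 19.6 to 22.7% of all FPKM in the allele libraries and 5.42 to 7.24% in the hairpin libraries. The 10 embryonic stem cell markers were all listed, with summed levels of 1939, 1971 and 2307 FPKM in N/N, +/N and +/+ cells and 2710 and 2428 FPKM in shTbx3 and shLuc cells. Over the 4 comparisons only Klf4, lower in N/N than in +/+ cells, passed 2-fold. Tdgf1 fell just short, at 107 FPKM in shTbx3 and 215 FPKM in shLuc cells, while the other 9 markers had a difference above 0 in this pair. The depth of the bulk libraries is unknown. Read lengths named for them differ, and which library had which is not stated.

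**Figure D1:**
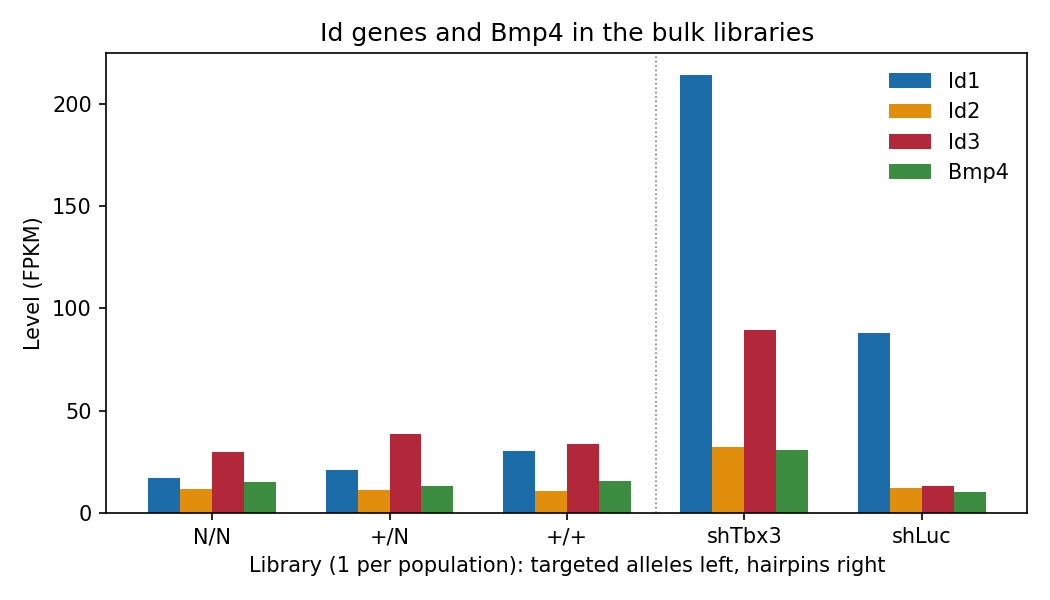
Levels in FPKM (vertical axis, linear from 0) of Id1, Id2, Id3 and Bmp4 in each of the 5 bulk libraries, 1 bar per gene and library, with no error bars because each population has 1 library. All 4 genes are highest in shTbx3, where Id1 reaches 214 FPKM.

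Id1 stood at 214 FPKM in shTbx3 and 87.8 FPKM in shLuc cells, a ratio of 2.44 and a log2 difference of 1.28. In the allele set Id1 stood at 17.0 FPKM in N/N, 21.0 FPKM in +/N and 30.03 FPKM in +/+ cells. Its order in the allele set was thus the opposite of that in the hairpin pair: the less Tbx3 transcript, the lower was Id1. The log2 difference was -0.78 for N/N and -0.50 for +/N against +/+ cells, which share the +/+ library, and -0.29 for N/N against +/N cells. None of these reached 2-fold, and 3.22% of the genes tested were at least as far down as Id1 in N/N against +/+ cells. The sum of primitive endoderm markers ran in the same order, at 8.11 FPKM in N/N, 14.1 FPKM in +/N and 47.1 FPKM in +/+ cells. Of 12 in the list 8 had a row, of which 6 were called lower in N/N and 5 in +/N than in +/+ cells. Foxa2, Sox7, Hnf4a and Afp had no row, and Gata6 stood at 0.615 FPKM in N/N, 1.21 FPKM in +/N and 3.14 FPKM in +/+ cells. Lama1 was the largest part of the sum in +/+ cells, at 21.3 FPKM. Pdgfra did not keep the order and was highest in +/N cells, at 1.46 FPKM. Nor did Amn, at 1.39 FPKM in N/N and 1.12 FPKM in +/N cells. The part of primitive endoderm cells in the level of Id1 was not tested.

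Id3 showed the largest difference of the 4 genes in the hairpin pair. It stood at 89.6 FPKM in shTbx3 and 13.2 FPKM in shLuc cells, a ratio of 6.81 and a log2 difference of 2.68, which 25 of the 11342 genes tested, Id3 included, reached. In the allele set it stood at 29.8 FPKM in N/N, 38.4 FPKM in +/N and 33.7 FPKM in +/+ cells, with no order along the genotypes. Its log2 differences there were -0.17 for N/N and 0.18 for +/N against +/+ cells and -0.35 for N/N against +/N cells. The shLuc library was the lowest of the 5 for Id3, below each allele library.

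Id2 stood at 32.4 FPKM in shTbx3 and 12.2 FPKM in shLuc cells, a ratio of 2.66 and a log2 difference of 1.34. It was nearly level elsewhere, at 11.4 FPKM in N/N, 11.3 FPKM in +/N and 10.8 FPKM in +/+ cells. Its log2 differences in the allele set were 0.08 for N/N and 0.06 for +/N against +/+ cells, and 0.02 for N/N against +/N cells. Id2 was the gene of the 4 with the narrowest range over the libraries other than shTbx3.

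Bmp4, the ligand, stood at 30.5 FPKM in shTbx3 and 10.1 FPKM in shLuc cells, a ratio of 3.02 and a log2 difference of 1.51. In the allele set it stood at 14.8 FPKM in N/N, 13.2 FPKM in +/N and 15.4 FPKM in +/+ cells. The log2 differences were -0.05 for N/N and -0.21 for +/N against +/+ cells, and 0.16 for N/N against +/N cells. The allele libraries thus lay close to each other, and all of them between shTbx3 and shLuc.

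All 4 genes were called higher in shTbx3 than in shLuc cells, where 2.81% of the genes tested were called higher and 0.987% lower. None was called in N/N against +/+ cells (1.37% of genes called higher, 1.92% lower), in +/N against +/+ cells (0.698% higher, 1.21% lower) or in N/N against +/N cells (0.317% higher, 0.308% lower). The median of all tested genes was itself 0.14 above 0 in the hairpin pair; with the median difference of genes that reached 5 FPKM in each (0.16) taken off, the differences were 1.12 for Id1, 1.18 for Id2, 2.52 for Id3 and 1.35 for Bmp4.

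**Figure D2:**
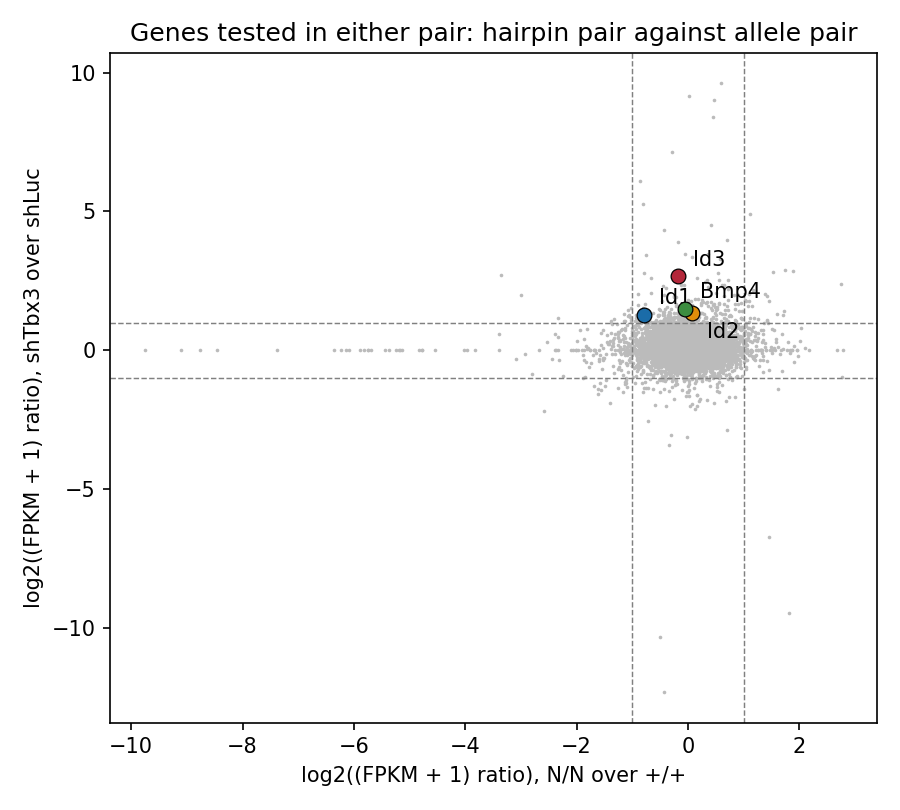
Log2 ratio of (FPKM + 1) in N/N over +/+ cells (horizontal axis) against that in shTbx3 over shLuc cells (vertical axis), 1 grey point per gene and the 4 genes in colour, with dashed lines at 2-fold. The 4 genes lie above the upper 2-fold line of the hairpin pair and between the 2-fold lines of the allele pair, with Id1 farthest to the left of them at -0.78.

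Set against every other library, the hairpin result was narrower. Id1, Id2 and Id3 in shTbx3 exceeded each of the other 4 libraries by 2-fold or more, as did 0.876% of the 11639 genes at 1 FPKM or more in any library. The nearest library was shLuc for Id1 (log2 difference 1.28) and Id2 (1.34) but +/N for Id3 (1.20). Bmp4 in shTbx3 came to 1.98 times its next highest level, in +/+ cells, a log2 difference of 0.94 and short of 2-fold. The difference of Id3 over its next highest library fell below 2-fold, to 0.92, when small RNA genes were left out and the FPKM rescaled. shTbx3 was the highest of the 5 libraries for 39.4% of these genes, so that the highest place alone is common.

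shLuc and +/+ cells, the controls of their sets, differed in these genes and in Tbx3 itself. Tbx3 stood at 13.8 FPKM in shLuc and 44.4 FPKM in +/+ cells, so that shLuc cells had less Tbx3 transcript than N/N cells, at 15.1 FPKM. Id1 stood at 87.8 FPKM in shLuc and 30.03 FPKM in +/+ cells, a log2 difference of 1.52, and Id3 at 13.2 FPKM in shLuc and 33.7 FPKM in +/+ cells, a log2 difference of -1.29. Id2 differed by 0.16 and Bmp4 by -0.57. Of 11568 genes tested between these 2 libraries 11.6% differed by 2-fold or more (5.68% higher in shLuc, 5.88% lower), against 3.8% between shTbx3 and shLuc. For Id1 the distance between the 2 controls was thus larger than the difference between shTbx3 and shLuc. The part of read length and depth in differences between the hairpin and allele sets was not tested.

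The make-up of the Id transcripts differed between the sets. Per length, the 3 Id genes summed to 58.3 FPKM in N/N, 70.7 FPKM in +/N and 74.5 FPKM in +/+ cells, and to 336 FPKM in shTbx3 and 113 FPKM in shLuc cells. Id3 made up the largest share in the allele set, with 51.2%, 54.3% and 45.2% in N/N, +/N and +/+ cells, while Id1 made up 29.2%, 29.7% and 40.3%. In the hairpin set Id1 led with 63.7% in shTbx3 and 77.6% in shLuc cells, and Id3 took 26.6% in shTbx3 against 11.6% in shLuc cells. Id4, the remaining gene of the family, was low throughout, at 5.28 FPKM in N/N, 6.23 FPKM in +/N, 8.24 FPKM in +/+, 4.82 FPKM in shTbx3 and 2.06 FPKM in shLuc cells. Its order was that of Id1 within each set, with a log2 difference of -0.56 for N/N against +/+ and 0.93 for shTbx3 against shLuc cells, neither reaching 2-fold.

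Markers of other cell types also moved in the hairpin pair. Of 12 primitive streak and mesoderm markers 5 had a row in the table, and all 5 (T, Eomes, Fgf8, Wnt3 and Hand1) were called higher in shTbx3, with summed levels of 77.2 FPKM in shTbx3 and 2.74 FPKM in shLuc cells; over the allele libraries the sum ran from 4.72 to 5.52 FPKM. T, which defines the streak, stood at 35.5 FPKM in shTbx3 and 0.605 FPKM in shLuc cells. Streak markers without a row, Mixl1 among them, could not be called in either direction. Of 5 trophectoderm markers tested 3, the keratins Krt7, Krt8 and Krt18, were called higher, with summed levels of 322 FPKM in shTbx3 and 29.3 FPKM in shLuc cells, and Cdx2 and Elf5 had no row. Of 12 B cell and antigen-presenting cell markers 7 were tested and 6 called lower, with summed levels of 19.6 FPKM in shTbx3 and 97.3 FPKM in shLuc cells, and Ms4a1 and Ptprc had no row. Cd68 differed the other way, uncalled, at 12.2 FPKM in shTbx3 and 6.03 FPKM in shLuc cells. Of 4 fibroblast markers tested 2 were called higher, Col1a1 at 4.38 FPKM in shTbx3 against 0.205 FPKM in shLuc and Acta2 at 7.89 FPKM in shTbx3 against 0.688 FPKM in shLuc cells. Thy1 differed the other way, uncalled, at 2.85 FPKM in shTbx3 and 5.81 FPKM in shLuc cells. The whole fibroblast list summed to 18.03 FPKM in shTbx3 and 8.20 FPKM in shLuc cells. Of 3 neuroectoderm markers tested Nes was called higher, at 14.4 FPKM in shTbx3 and 5.21 FPKM in shLuc cells, with list sums of 65.8 FPKM in shTbx3 and 49.01 FPKM in shLuc cells. The part of these cells in the levels of the 4 genes was not tested, and in bulk RNA fewer cells of a type and less RNA per cell cannot be told apart.

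The other lists of the BMP pathway had medians of 0.27 to 0.82 in the hairpin pair, beside 1.42 for the 4 genes, although single genes reached differences as large as theirs. Of the other ligands, Gdf3, Bmp7 and Bmp8b had a row, of 11 in the list. None of the 3 was called, and their median log2 difference was 0.27 beside 0.14 for all genes tested. Gdf3, a ligand related to Nodal, stood at 27.1 FPKM in shTbx3 and 22.3 FPKM in shLuc cells. Bmp7 was the ligand that differed downward, at 2.13 FPKM in shTbx3 and 3.11 FPKM in shLuc cells.

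Among 10 receptors and co-receptors 8 had a row and 7 were tested, with 1 called higher, none lower and a median of 0.40. Rgmb, a membrane-anchored BMP co-receptor, stood at 5.998 FPKM in shTbx3 and 1.70 FPKM in shLuc cells, a log2 difference of 1.37. The type II receptor gene Acvr2b stood at 18.1 FPKM in shTbx3 against 10.9 FPKM in shLuc cells, a difference of 0.69, and the co-receptor gene Eng at 13.4 against 9.19 FPKM in the same order. Bmpr1a, the main type I receptor gene of early embryos, was nearly level, with 8.63 FPKM in shTbx3 and 9.23 FPKM in shLuc cells.

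Of 10 genes for Smads and their regulators 9 were tested and none was called in the hairpin pair, with a median of 0.30. Smad4, the shared partner, stood at 24.4 FPKM in shTbx3 and 19.7 FPKM in shLuc cells. The corepressor gene Ski stood at 22.5 FPKM in shTbx3 and 16.2 FPKM in shLuc cells, while its relative Skil differed the other way, with 16.9 FPKM in shTbx3 and 24.8 FPKM in shLuc cells. Smad7, an inhibitory Smad induced by BMP and TGF-beta signals, differed by more in the allele set, though neither difference has a replicate check. It stood at 19.4 FPKM in N/N, 23.9 FPKM in +/N and 35.3 FPKM in +/+ cells, against 11.8 FPKM in shTbx3 and 9.37 FPKM in shLuc cells. Its order was that of Id1 in both sets, and its log2 difference of -0.83 for N/N against +/+ cells did not reach 2-fold.

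Of 15 antagonists and secreted regulators 10 had a row, and 9 were tested in the hairpin pair with 2 called higher, none lower and a median of 0.63. These were Fst, the activin and BMP binding protein follistatin, at 3.85 FPKM in shTbx3 and 0.403 FPKM in shLuc cells, and Bmp1, a protease that cleaves the antagonist chordin, at 4.76 FPKM in shTbx3 and 0.860 FPKM in shLuc cells. Both lay below the level set for naming genes and were named after their values were seen. In the allele set 2 were called higher in N/N than in +/+ cells: Fstl3, a follistatin relative, at 9.85 FPKM in N/N, 6.73 FPKM in +/N and 3.17 FPKM in +/+ cells, and Nbl1, named after its value was seen, at 2.41 FPKM in N/N against 0.519 FPKM in +/+ cells. Nbl1 and Grem1, a secreted BMP antagonist, were called higher in +/N than in +/+ cells, and Grem1 stood at 3.86 FPKM in N/N, 6.11 FPKM in +/N and 1.72 FPKM in +/+ cells. The sum of fibroblast markers moved with them, at 108 FPKM in N/N, 106 FPKM in +/N and 44.5 FPKM in +/+ cells. In N/N against +/+ cells 4 of 6 tested were called higher, beside 1.37% of all genes. Thy1 differed the other way, uncalled, at 10.03 FPKM in N/N and 11.1 FPKM in +/+ cells, and Col3a1, Dcn and Lum had no row. The part of fibroblasts in these differences was not tested.

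Other genes known to respond to BMP were all higher in shTbx3 cells, if mostly by less than 2-fold. Of 13 in the list, of which Smad6, Smad7 and Bambi are also on lists above, 9 were tested, of which 3 were called higher, none lower, and 9 had a difference above 0, as did 64.5% of all genes. Their median was 0.82. The homeobox genes Msx1 and Msx2, named after their values were seen, stood at 2.93 and 2.73 FPKM in shTbx3 and at 0.283 and 0.634 FPKM in shLuc cells. Hand1, a bHLH factor of mesoderm and trophoblast that is also on the streak list above, stood at 6.24 FPKM in shTbx3 and 0.414 FPKM in shLuc cells. Dusp9, a phosphatase of ERK kinases that BMP induces in these cells, stood at 37.6 FPKM in shTbx3 and 20.8 FPKM in shLuc cells, a difference of 0.82. In N/N against +/+ cells 7 of the list were tested, none was called and the median was 0.15.

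Of the bHLH factors that Id proteins bind, all 3 E protein genes had a row, none was called, and the median in the hairpin pair was 0.34, beside 0.14 for all genes. Tcf3, which encodes the E2A proteins, was the most abundant, with 89.2 FPKM in shTbx3, 54.8 FPKM in shLuc and 51.1 to 65.8 FPKM in the allele libraries, a log2 difference of 0.69 in the hairpin pair. Tcf12 stood at 5.81 FPKM in shTbx3 and 4.38 FPKM in shLuc cells, and Tcf4 at 3.66 FPKM in shTbx3 and 4.14 FPKM in shLuc cells. Of 15 tissue-specific bHLH genes, the partners that E proteins take in differentiated cells, 4 had a row and Hand1 was the 1 called. Neurod1 stood at 2.07 FPKM in shTbx3 and 3.13 FPKM in shLuc cells.

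**Figure D3:**
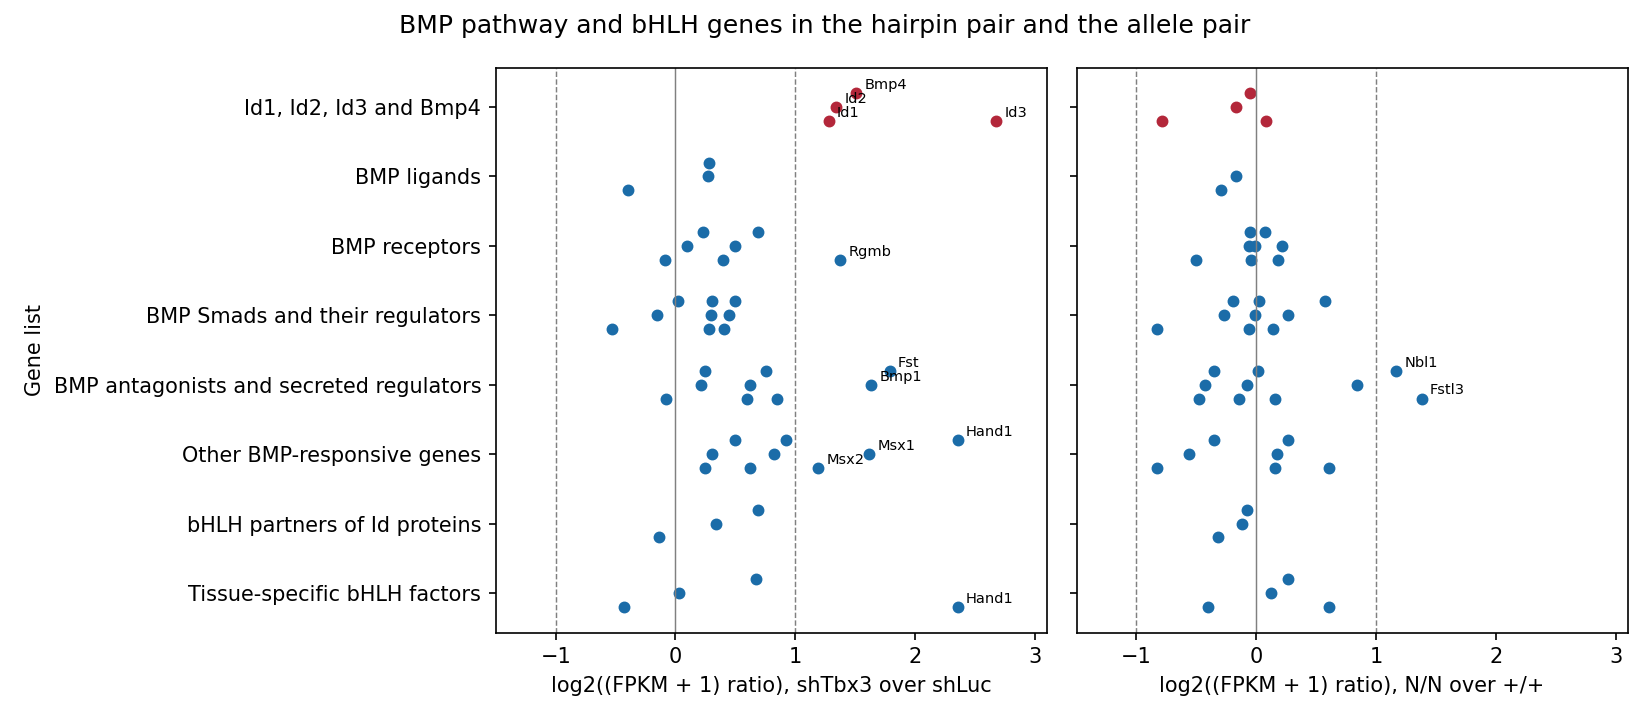
Log2 ratio of (FPKM + 1) for the genes tested in each list (rows), in shTbx3 over shLuc cells (left) and in N/N over +/+ cells (right), with 1 point per gene, red for the 4 genes described and blue for the others, and dashed lines at 2-fold. Points within a row are spread vertically only to keep them apart. On the left the 4 red points lie to the right of the 2-fold line, and on the right they lie between the lines.

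None of the 4 genes was among the 5 nearest to another of them in profile over the 5 libraries. Likeness was measured as the Euclidean distance between profiles of log2(FPKM + 1), each less its own mean, among 8232 genes at 5 FPKM or more in any library. The nearest to Id1 were Hist1h4k, a histone H4 gene, at a distance of 0.36, then Cd24a, Rpl36, Usmg5 and Ptma at 0.69 to 0.80. Nearest to Id3 were Ntn1, which encodes the guidance protein netrin, at 0.47, then Dusp4, Flnc, Anxa3 and Hand1 at up to 0.65. Id2 had Nnat (0.11), Chd3, Lphn2, Ddr1 and Tnfrsf12a as its nearest genes, and Bmp4 had Dapk3 (0.21), Fzd2, Plekhg2, Tead3 and Dll3. Among the 4 genes themselves, Bmp4 was the 18th nearest gene to Id3 and the 155th nearest to Id2, while Id1 was the 7771st nearest to Id2, the 8078th to Id3 and the 8105th to Bmp4. Ranks depend on the gene they are counted from. The distance also counts the size of changes, and Id1 had the widest range of the 4, from 17.0 to 214 FPKM. Counted from Id1, Id2 was the 652nd nearest gene, Bmp4 the 2691st and Id3 the 5203rd. Counted from Bmp4, Id2 was the 184th and Id3 the 2157th. Each profile rests on 5 values, and the profiles share their libraries.

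Tbx3 sites lay near Id3 and Id2. Within 20 kb of the gene's start there was 1 site for Id3, 1 for Id2 and none for Id1 or Bmp4. Of 11094 protein-coding genes of the bulk table, 14.9% had a site that close. Within 50 kb each of the 4 genes had a site, as did 26.5% of the coding genes. The Id3 site, chr4:135702511-135703193, had a score of 489 and ranked 25th of 3078, where the median score was 76.7 and the highest 791. It began 3099 bp downstream of the start and 841 bp past the annotated end of the gene. Only 13 of the 11094 genes (0.117%), Id3 included, had a site with a score as high within 20 kb. The score is the authors' own and was used only to rank sites within the list.

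The Id2 site, chr12:25783585-25783988, lay 2628 bp upstream of the start, with a score of 82.4 and rank 1385. The Bmp4 site, chr14:47032199-47032511, lay 21855 bp upstream, with a score of 67.6 and rank 1872; no coding gene started closer to it. The Id1 site, chr2:152595452-152595886, lay 33465 bp downstream, within the gene Bcl2l1 and closer to the start of Cox4i2, with a score of 102 and rank 971. A further site, chr4:135627236-135627607, lay 71805 bp upstream of Id3, closest to the start of Rpl11, with a score of 60.4 and rank 2267. The order of the best scores, with Id3 far above Id1, Id2 and Bmp4, is shown in the plot of sites by distance.

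**Figure D4:**
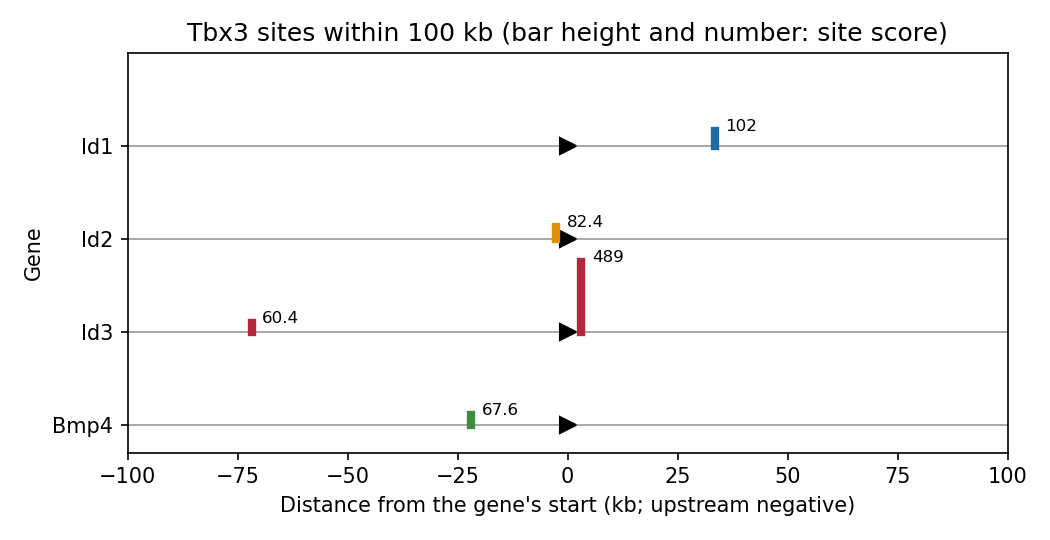
Tbx3 sites within 100 kb of the start of each gene (rows, distance in kb, upstream negative; the arrowhead is the start, with every gene drawn left to right), with bar height and number giving the site's score. The site 3.1 kb downstream of the Id3 start has a score of 489, and the others lie between 60.4 and 102.

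Genes next to the 4 were not called in the hairpin pair. Within 100 kb of the start of Id1 started the coding genes H13, Mcts2, Cox4i2 and Bcl2l1, with log2 differences of 0.54, -0.23, -0.46 and -0.19 in shTbx3 over shLuc cells. Near Id3, E2f2 differed by -0.26 and Asap3 by 0.34, and Rpl11 had no row. In N/N against +/+ cells E2f2, a cell cycle transcription factor gene, stood at 2.63 against 4.98 FPKM, a difference of -0.72. No coding gene started that close to Id2, and Gm15217 near Bmp4 had no row.

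Elsewhere in the pathway, sites within 20 kb were listed for Gdf3, Rgma, Smad6, Smad7, Skil, Chrd, Fstl3, Dand5 and Id4. These were 1 of 11 ligands, 1 of 10 receptors, 3 of 10 Smads and regulators and 3 of 15 antagonists. Of 13 other BMP-responsive genes 3 had a site, with Smad6 and Smad7 on both lists. The share over the coding genes of the bulk table was 14.9%. Smad6 and Skil had 2 each. The highest of these scores was that of Gdf3, 411 (rank 46), and that near Id4 was 76.1. None of the 3 E protein genes had a site within 20 kb. Id3 and Gdf3 thus had the highest-scoring sites among these genes, with log2 differences of 2.68 and 0.27 in shTbx3 over shLuc cells.

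In single SSEA1+ cells the 4 genes were found at high levels in few cells. Of 45 cells, 20 had Id1 at or above 1 FPKM (44.4%, with an exact 95% Clopper-Pearson interval of 29.6 to 60.003%), 14 had Bmp4 (31.1%, 18.2 to 46.6%), 10 had Id2 (22.2%, 11.2 to 37.1%) and 9 had Id3 (20%, 9.58 to 34.6%). Intervals cover counting error only. The 4 shares come from the same 45 cells, so overlap of their intervals cannot say whether they differ. Cell and bulk tables were scaled separately and are not compared in level.

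Id1 ran from 0 to 739 FPKM over the 45 cells, with a median of 0.675 FPKM and a mean of 54.3 FPKM, against 122 FPKM in the pool. Id3 ran from 0 to 478 FPKM with a median of 0 and a mean of 42.5 FPKM, close to the 40.6 FPKM of the pool. Id2 ran from 0 to 381 FPKM with a median of 0.233 and a mean of 16.6 FPKM, against 15.8 FPKM in the pool. Bmp4 ran from 0 to 805 FPKM with a median of 0.313 and a mean of 30.5 FPKM, against 29.9 FPKM in the pool. The 5 highest cells held 75.0% of the summed FPKM of Id1, 89.96% of Id3, 98.1% of Id2 and 96.7% of Bmp4.

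The low values of each gene were whole multiples of its smallest value once the depth of each cell was taken into account. With that value taken as 1 read, this gives approximate reads per cell. All 14 values of Id1 under 20 reads came within 0.1 read of a whole number, as did 6 of Id3, 21 of Id2 and 26 of Bmp4. Id3 had no read in 31 cells, 1 or 2 reads in 6 cells and 36 to 1508 reads in the other 8. Id2 had no read in 21 cells, at most 8 reads in another 21 and 126 to 1971 reads in the remaining 3. Id1 had no read in 18 cells, 1 to 6 reads in 14 cells and 24 to 968 in 13. The cells thus fell into those with next to none and those with many reads for Id2 and Id3, with no cell between. For Id1 the gap in reads was narrow in level, because depth differs between cells. There 6 reads stood for 4.08 FPKM in cell 84 and 27 reads for 7.93 FPKM in cell 19. Bmp4 had no read in 11 cells, 1 to 9 reads in 23 and 11 to 4060 in the other 11, without such a gap. A level near 1 FPKM here stood for a handful of reads, so the counts at 10 FPKM or more are the firmer ones: 12 cells for Id1, 8 for Id3, 6 for Bmp4 and 3 for Id2.

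**Figure D5:**
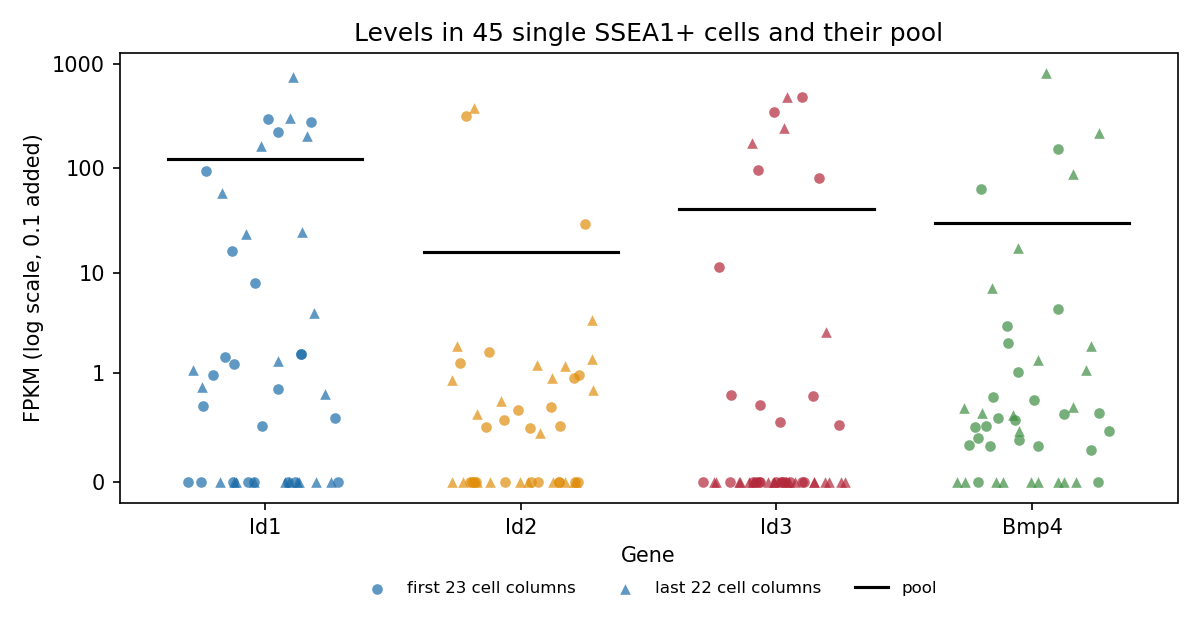
Levels in FPKM (log scale after adding 0.1) of the 4 genes in 45 single cells, 1 point per cell, with circles for the first 23 and triangles for the last 22 cell columns of the table and a black line for the pool of cells. Most cells lie below the line of the pool, and few reach 100 FPKM or more.

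Of the 45 cells 27 had none of the 4 genes at 10 FPKM or more, 10 had 1, 5 had 2, 3 had 3 and none had all 4. Id3 was at that level in 4 of the 6 Bmp4 cells (66.7%, exact 95% interval 22.3 to 95.7%) and in 4 of the other 39 (10.3%, 2.87 to 24.2%). That these intervals overlap shows neither a difference nor its absence. This was the widest contrast of all pairs at this level, and it was not tested. Id1 was at that level in 3 of the 6 Bmp4 cells and in 9 of the other 39. The cell with the most Bmp4, at 805 FPKM, also had 165 FPKM of Id1 and 244 FPKM of Id3. The cell with the most Id2, at 381 FPKM, had 302 FPKM of Id1 and no read of Id3 or Bmp4.

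Across the 45 cells Spearman's rho was 0.29 between Id3 and Bmp4, 0.27 between Id1 and Id2 and -0.07 to 0.13 for the other pairs. With Tbx3 rho was -0.03 to 0.09 for the 4 genes. These cells share depth, and Id3 itself had a rho of 0.32 with the number of genes detected per cell, as large as that with Bmp4; in counts this sparse such values are no finding. By the same measure, the genes most like Id1 among 3062 genes were Heatr6 (0.56), Aspscr1, Tmem64, Cth and Selk, and those most like Bmp4 were Nol9 (0.62), Mkrn1, Tmx2, Cbr1 and Trappc6b. Cells with both genes at 10 FPKM or more numbered 2 (Heatr6) to 10 (Selk) with Id1, and 1 (Trappc6b) to 6 (Mkrn1) with Bmp4. As the extremes of 3062 values in the same sparse counts, these are no finding either. Id2 and Id3 were seen in too few cells for this ranking.

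The first 23 cell columns had more genes above 0 (median 4696) than the last 22 (median 2738), with a relative depth of 1.25 against 0.645. At 10 FPKM or more the first block held 5 cells for Id1, 2 for Id2, 5 for Id3 and 2 for Bmp4, and the last block 7, 1, 3 and 4. High cells of every gene thus came from both blocks. Stem cell markers were uneven too: Zfp42 and Sall4 were at 1 FPKM or more in all 45 cells, Sox2 in 35, Nanog in 12 and Pou5f1 in 11, although Pou5f1 stood at 1370 FPKM in the pool. A level of 0 in a cell of this table is therefore not a sign that the gene is off. High levels in every cell need not match the pool either. Sall4 averaged 3337 FPKM over the cells against 72.4 FPKM in the pool, and the cause was not tested.

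Most other genes of the pathway were sparse in the same cells. Gdf3 was at 1 FPKM or more in 20 cells and the type I receptor gene Bmpr1a in 8, while Bmpr2 and Acvr1 reached it in none and stood at 4.81 and 2.25 FPKM in the pool. Smad7 was at that level in 14 cells, Smad1 and Smad4 in 11 each, Skil in 45, Tcf4 in 23 and Tcf3 in 6. Like Sall4, Skil was far above the pool, with a mean of 312 FPKM over the cells against 27.3 FPKM. Hand1 and Msx1 were at 0 in every cell, and Id4 reached 1 FPKM in 1 cell.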

How the data were processed

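Bulk RNA was measured in 5 libraries and single-cell RNA in 45 cells and 1 pool. The authors deposited FPKM for both, made on mm9 with TopHat, Cufflinks and Cuffdiff (bulk) or Cuffnorm (cells), per the submitters' processing notes. FPKM divides by each library's total, so genes that take a larger share lower the rest. The deposited Tbx3 sites carry a score and names that begin with MACS, a program that the notes do not name. Bowtie 1.0 and HOMER are named in the notes, and which program scored the sites is not stated. The BirA control was not used here.

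From these values log2 ratios were computed after adding 1 FPKM, for genes that reached 1 FPKM in either of the libraries compared, and 2-fold or more was called. Site distances run from the nearest base to the earliest annotated start (GENCODE, mm9). Reads per cell were estimated from the steps between low values. Python 3.11.15, numpy 2.4.6, pandas 2.3.3 and scipy 1.17.1 were used. The calculations were tested on simulated data. Read depth is unknown, so the FPKM of a bulk library has no counting interval.

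The genes and lists were chosen with earlier results of these data known. Named were the 4 genes with all their sites within 100 kb, list genes at 5 FPKM or more in a bulk library and past 2-fold, the 4 most abundant of each list, and the 5 genes most like each of the 4; examples from these were given. The comparison of shLuc with +/+ cells and that of shTbx3 with every other library were added after seeing the data. Alternatives changed the pseudocount (0.1 and 5), the scaling, the filter, the site window (5 and 50 kb), the site score and the cell threshold.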

Additional observations from a re-analysis of the deposited data

Results flagged for a closer look

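Id1, Id3 and Bmp4 had a log2 difference above 0 in the hairpin pair, where all 3 were called, and below 0 in the allele pair, where none was called. The log2 difference of shTbx3 over shLuc less that of N/N over +/+ cells was 2.06 for Id1, 2.85 for Id3 and 1.56 for Bmp4. With 1 library per population this difference between the sets was not tested. For Id3 and Bmp4 the N/N difference was small (-0.17 and -0.05), with 32.5% and 46.9% of genes at least as low, and Id3 differed by 0.18 in +/N against +/+ cells. The 2 control libraries, shLuc and +/+, differed in Id1 by 1.52 and in Id3 by -1.29, and the part of this in the pattern was not tested.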

How the results depend on the processing

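The log2 differences of the 4 genes in the 4 comparisons kept their direction and their side of 2-fold under other pseudocounts and scalings where they were called; in the hairpin pair they ran from 1.12 to 1.29 for Id1, 1.12 to 1.40 for Id2, 2.38 to 2.76 for Id3 and 1.23 to 1.59 for Bmp4. Over its next highest library Id3 in shTbx3 differed by 0.92 without small RNA genes, under 2-fold. Counts over all genes moved. With a pseudocount of 0.1, the genes higher and lower were 262 and 358 for N/N against +/+ (157 and 220 as reported), 128 and 221 for +/N against +/+ (80 and 139), and 536 and 215 for shTbx3 against shLuc (319 and 112), with 54 lower for N/N against +/N (35). With 5 they were 64 and 101, 39 and 80, and 109 and 28 in the first 3 of these. For shLuc against +/+ they were 348 and 349 (657 and 680), and genes with shTbx3 above each other library numbered 38 (102). Without small RNA genes 78 genes were lower in +/N than in +/+ cells, and 7 were higher and 5 lower in N/N than in +/N cells (36 and 35). With the median set to 0, 171 were lower in shTbx3. A window of 50 kb gave Id1 and Bmp4 1 site each. Id1 was in 28.9% of cells at 5 FPKM and 26.7% at 10 FPKM, Id2 in 53.3% above 0 and 6.67% at 5 or 10 FPKM, and Bmp4 in 75.6% above 0, 15.6% at 5 FPKM and 13.3% at 10 FPKM. The uncalled difference of Id2 in N/N against +/N cells (0.02) turned to -0.08 with the median set to 0 and to -0.01 without small RNA genes. The other alternatives kept direction and call, with counts within 1.5 times and shares of cells within their 95% intervals, and the cause of these shifts was not tested. No paired analysis was possible because each population has 1 library. Unknown bulk depth and shallow cells limit what low levels show.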
